A study of Mus musculus with 2 samples.

Results

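The genes described here are 10 stress genes of mouse small cell lung cancer cells, taken as the rows of both count matrices whose gene symbol is on a list of 10, out of 28692 genes in all. Each listed symbol was found once, and all 10 had at least 50 transcripts counted over both libraries. The list has an ATF4-CHOP arm of 5 genes (Atf4, Ddit3, Trib3, Chac1 and Asns) and a chaperone arm of 5 genes (Hspa5, Herpud1, Sdf2l1, Pdia4 and Xbp1). The question taken from the labels is how tumour cells of cisplatin-treated mice differ from those of vehicle-treated mice.

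Both libraries came from lung tumours of mice of a mixed strain that carried CGRPCreER/+ and floxed alleles that include Rbf/f and P53f/f, with the reporter Rosa26mTmG. In these mice an inducible Cre recombinase expressed from the CGRP locus of neuroendocrine cells is designed to delete the floxed genes, Rb and P53 among them, and to switch the reporter to GFP, so both groups share this design. The vehicle group received saline and the cisplatin group received 5 mg per kg cisplatin, every 4 days for 2 weeks, and each group is 1 library of live GFP-sorted cells on the 10x Genomics platform. The loading step in the labels calls the treated tumours cisplatin/etoposide, while the treatment step names cisplatin only. The ages of the mice, the number of mice behind a library and the Cre induction are not given in the sources used here.

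After removal of 54 and 36 barcodes, 3672 vehicle cells held 32305146 unique molecular identifiers (UMIs, 1 per captured transcript), with a median of 8205.5 per cell. The 4218 cisplatin cells held 28665692 UMIs, with a median of 5940.5 per cell. The cell label was checked against 15 neuroendocrine markers, of which 11 in vehicle and 12 in cisplatin reached 100 CPM, the UMIs of a gene scaled to the same library total. The libraries shared 23 barcodes. In vehicle and cisplatin, Rb1 stood at 19.7 and 13.6 CPM and Trp53 at 71.5 and 81.5 CPM. These levels did not check the deletions, since reads near the end of a transcript need not fall in the deleted part. With 1 library per group, treatment, animal and library cannot be told apart and no test was possible. Intervals are exact 95% intervals of counting error only, and a gene is called higher or lower where CPM differed at least 1.5-fold.

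The unfolded protein response is the signalling that follows when misfolded proteins gather in the endoplasmic reticulum (ER). Its PERK branch phosphorylates the translation factor eIF2alpha, as do other kinases that sense amino acid shortage, viral RNA or haem loss, and this shared step is called the integrated stress response. Phosphorylated eIF2alpha favours translation of Atf4 mRNA, and ATF4 protein activates genes for amino acid supply and the factor CHOP, the product of Ddit3. The IRE1 branch splices Xbp1 mRNA and the ATF6 branch releases a transcription factor by cleavage, and both feed the genes of ER chaperones. Counts per gene show neither the translation of Atf4 nor the splicing of Xbp1.

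Promoter sequences were searched for response elements next to the start sites of the genes. The amino acid element was found in 3 of 5 ATF4-CHOP genes and 1 of 5 chaperone genes, the ER stress elements in 2 of 5 chaperone genes, and neither kind in Atf4, Ddit3, Sdf2l1, Pdia4 and Xbp1. RefSeq promoters of build GRCm38.p6, from 250 bases before to 50 bases after the start, were found for all 10 genes and searched on both strands. The amino acid response element TGATGNAA, the type of site that ATF4 with a C/EBP partner binds, was present in Asns, Chac1, Trib3 and Herpud1 and in 3.97% of 32851 promoters. The ER stress response element, CCAAT and CCACG with 9 bases of any kind between them, is the type bound by NF-Y with ATF6. It was present in Hspa5 and in 0.119% of promoters, and its variant, ATTGG and CCACG with 1 base between them, was present in Herpud1 and in 0.0365%. The core TGACGTG, of the type that XBP1 binds, was present in Hspa5 and in 2.01% of promoters. Both ER stress elements contain a CCAAT box or its complement, which alone was present in 7 of the 10 genes and in 37.4% of promoters. The sequences below are given 5′ to 3′ on the strand of the gene, with the amino acid and ER stress elements in capitals and the XBP1-type core and separate CCAAT boxes left in lower case, and show that Herpud1 of the chaperone arm carries an element of each kind. A match is a description of the letters and not evidence of binding.
Asns promoter (chr6:7693210-7693459, minus strand): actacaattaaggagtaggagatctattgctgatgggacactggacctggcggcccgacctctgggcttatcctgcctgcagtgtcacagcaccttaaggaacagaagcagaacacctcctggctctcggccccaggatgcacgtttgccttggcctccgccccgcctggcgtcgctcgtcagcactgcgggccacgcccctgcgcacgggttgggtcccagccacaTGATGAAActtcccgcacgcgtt
Chac1 promoter (chr2:119350992-119351241, plus strand): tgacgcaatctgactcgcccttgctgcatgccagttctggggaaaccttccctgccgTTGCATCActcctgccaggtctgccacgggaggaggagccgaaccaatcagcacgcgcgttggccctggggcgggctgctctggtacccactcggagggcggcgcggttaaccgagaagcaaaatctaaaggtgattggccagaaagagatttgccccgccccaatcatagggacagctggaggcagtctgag
Trib3 element just after the start (chr2:152344028-152344057, minus strand): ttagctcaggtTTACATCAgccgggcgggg
Herpud1 promoter (chr8:94386179-94386428, plus strand): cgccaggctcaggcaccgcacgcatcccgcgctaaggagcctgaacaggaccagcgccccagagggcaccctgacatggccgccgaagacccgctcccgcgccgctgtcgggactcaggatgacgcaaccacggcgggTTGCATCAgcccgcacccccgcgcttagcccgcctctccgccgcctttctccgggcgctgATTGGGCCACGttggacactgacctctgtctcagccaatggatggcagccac
Hspa5 promoter (chr2:34771840-34772089, plus strand): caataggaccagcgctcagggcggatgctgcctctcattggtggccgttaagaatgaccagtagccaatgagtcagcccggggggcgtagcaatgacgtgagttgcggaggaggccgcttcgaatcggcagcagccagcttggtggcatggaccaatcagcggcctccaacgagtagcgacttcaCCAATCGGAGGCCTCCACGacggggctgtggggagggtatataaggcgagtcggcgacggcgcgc

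Summed over all cells, the arms differed between the libraries: 2 chaperone genes were higher in cisplatin, and no gene of the ATF4-CHOP arm passed the fold in either direction. Among 13446 measured genes, 8.09% were higher and 21.7% were lower in cisplatin, with a median log2 ratio of -0.16. At a 2-fold threshold 0 of 10 members passed in either direction, beside 3.84% of all genes higher and 7.13% lower. The median log2 ratio was -0.18 for the ATF4-CHOP arm and 0.53 for the chaperone arm. Relative to the median of all genes, these were -0.01 and 0.69, where 12% of all genes were higher and 14% lower. On that scale 3 of 10 members were higher, Herpud1 beside Sdf2l1 and Pdia4, and none was lower.

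Atf4 (ENSMUSG00000042406, chr15:80255184-80257541), the transcription factor at the head of the integrated stress response, was counted at 408 CPM (401 to 415) in vehicle and 279 CPM (273 to 285) in cisplatin. Its log2 ratio of -0.55 (-0.59 to -0.51) was the lowest of the 10 genes and stayed within the fold. Ddit3 (ENSMUSG00000025408, chr10:127290774-127296288), which encodes the death-promoting factor CHOP, was counted at 81.8 CPM (78.7 to 85.0) and 97.7 CPM (94.1 to 101), a log2 ratio of 0.25 (0.18 to 0.33). Over all cells the factor and its target thus lay on opposite sides of equality, each beyond counting error. In cells with no mitotic UMI both log2 ratios were below equality, at -0.61 for Atf4 and -0.12 for Ddit3. The Ddit3 intervals overlapped there, at 74.7 CPM (67.2 to 82.9) in vehicle and 68.6 CPM (61.9 to 75.8) in cisplatin. Mars, a tRNA synthetase gene on the other strand, overlaps Ddit3 exons in GENCODE M21 (GRCm38). The strand of counting is not given in the sources used here, so reads of the 2 genes cannot be told apart with certainty. Mars itself was counted at 41.0 and 29.4 CPM.

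The other 3 genes of the arm act downstream of ATF4 and CHOP. Trib3 (ENSMUSG00000032715, chr2:152337422-152344032), a pseudokinase that inhibits AKT and ATF4, was counted at 26.3 and 23.0 CPM in vehicle and cisplatin, a log2 ratio of -0.18 (-0.34 to -0.04). Chac1 (ENSMUSG00000027313, chr2:119351229-119354381), which degrades glutathione, was counted at 8.45 CPM and 7.36 CPM, and the interval of its log2 ratio of -0.18 (-0.47 to 0.07) included equality. Asns (ENSMUSG00000029752, chr6:7675169-7693254), the asparagine synthetase, was counted at 78.2 CPM and 72.8 CPM, a log2 ratio of -0.10 (-0.19 to -0.02). All 3 were therefore close to the median shift of all genes, and Asns turned to 0.05 with TMM scaling.

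In the chaperone arm, Pdia4 (ENSMUSG00000025823, chr6:47796141-47813430), a disulfide isomerase of the ER, went from 61.7 CPM (59.0 to 64.5) in vehicle to 122 CPM (118 to 126) in cisplatin. It was 1.98-fold higher, a log2 ratio of 0.97 (0.91 to 1.07). Sdf2l1 (ENSMUSG00000022769, chr16:17130138-17132383), a partner of ER HSP40 proteins, was counted at 101 CPM (97.4 to 104) and 152 CPM (148 to 157), 1.51-fold higher and close to the threshold. Both were higher, and their percentiles among all measured genes were 97.3 and 93.5.

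The other 3 chaperone-arm genes stayed within the fold. Hspa5 (ENSMUSG00000026864, chr2:34771970-34777547), which encodes the main ER chaperone BiP, was counted at 755 CPM (746 to 765) and 961 CPM (950 to 972), a log2 ratio of 0.35. Herpud1 (ENSMUSG00000031770, chr8:94386438-94395377), a membrane protein of ER-associated degradation, was counted at 82.2 CPM and 119 CPM, a log2 ratio of 0.53 (0.46 to 0.61). Xbp1 (ENSMUSG00000020484, chr11:5520659-5525893), the transcription factor of the IRE1 branch, was counted at 112 CPM and 99.0 CPM, a log2 ratio of -0.18 (-0.25 to -0.11). Xbp1 thus lay near the median shift of all genes, at -0.01 relative to it, and its side of equality depended on the scaling, with 0.0055 under median-of-ratios factors. An antisense gene over Herpud1, Gm15890, held 6 and 2 UMIs, and the microRNA gene Mir704 lies within Pdia4.

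**Figure D1:**
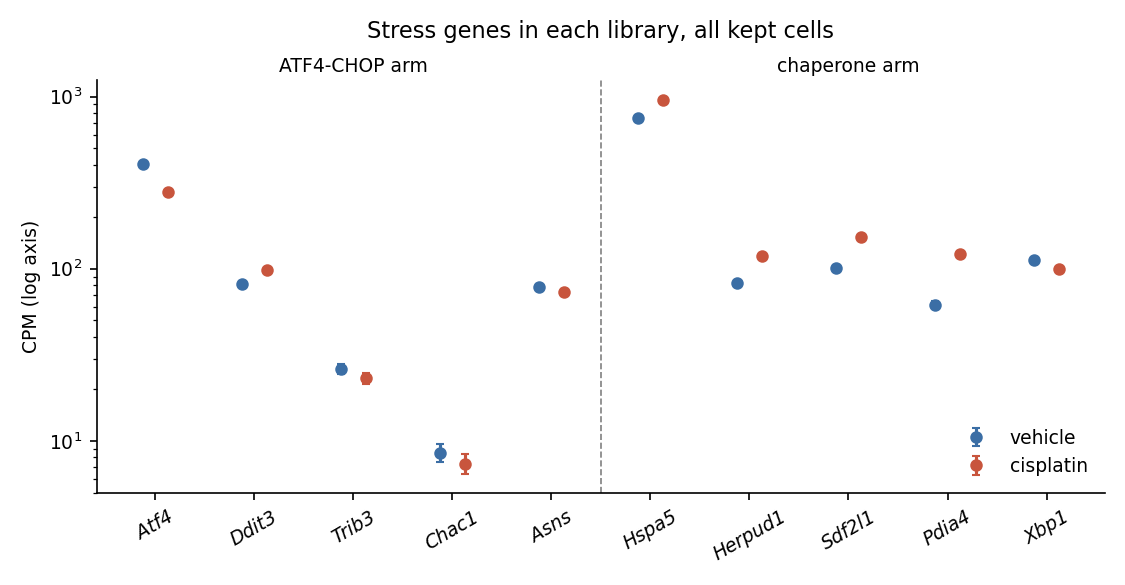
CPM of each stress gene (log axis) in the vehicle and cisplatin libraries over all kept cells, with exact 95% counting intervals as bars; most bars are smaller than the points. Pdia4 (61.7 and 122 CPM) shows the widest gap on the chaperone side and Atf4 (408 and 279 CPM) the widest on the ATF4-CHOP side.

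The share of cells with at least 1 UMI was larger in cisplatin, by any amount, for 6 of 10 members in cells thinned to 3000 UMIs. Without thinning it was larger for 4 of 10. By CPM 5 members were above their vehicle level by any amount, of which 2 passed the fold. Trib3 was the one that changed sides between CPM and the thinned share. The same counts were not made for all genes, so they only describe the members. Thinning kept 3526 vehicle and 3857 cisplatin cells and left out 146 and 361 shallower cells. Ddit3 was detected in 12.9% (11.8 to 14.0) of vehicle and 19.2% (17.9 to 20.4) of cisplatin cells. Without thinning the vehicle share was 26.0%. Atf4 was detected in 64.2% (62.6 to 65.8) and 53.02% (51.4 to 54.6) of thinned cells. Pdia4 was detected in 16.5% (15.3 to 17.7) and 27.5% (26.1 to 28.9). Trib3, at 4.54% and 4.74%, and Chac1, at 1.93% and 1.63%, had overlapping intervals. These genes have roles in every cell type, so no cell type that should lack them could serve as a background for the shares.

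Cell states were Leiden clusters of both libraries together, made without the 10 genes and without the pathway lists given below. There were 13 clusters, and 7 of them were called neuroendocrine tumour-like from their markers. The ATF4-CHOP arm was highest in cluster 7, which held 143 vehicle cells (3.89%) and 148 cisplatin cells (3.51%) and, unlike most clusters, drew similar numbers from both libraries. Its 8 leading genes by fold were BC018473, Cxcl10, Dcn, Nupr1, P2rx7, Snhg12, Ddit3 and Trib3. It stayed unnamed, because Dcn is a fibroblast marker and no neuroendocrine marker was among its leading genes. Cluster 7 was singled out for this arm, so the levels below are a description and not a test.

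In vehicle, all 5 ATF4-CHOP genes were higher in cluster 7 than in the other cells, and 1 of 5 chaperone genes was. Of 12514 measured genes, 14.2% were higher there and 24% lower. Ddit3 was counted at 669 CPM (624 to 716) in cluster 7 and 58.6 CPM (55.9 to 61.3) in the other cells, an 11.4-fold difference. Trib3 was counted at 202 CPM against 19.3 CPM and Chac1 at 51.3 CPM against 6.76 CPM. CHOP and its targets thus had wider gaps than Atf4, at 918 CPM against 388 CPM, and Asns, at 171 CPM against 74.6 CPM. Cluster 7 held 3.80% of the library's UMIs, yet 31.1% of its Ddit3, 29.2% of its Trib3 and 23.1% of its Chac1 UMIs.

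In the chaperone arm of the same cells, 4 of 5 genes stayed within the fold. Hspa5 was counted at 871 CPM (820 to 925) in cluster 7 and 751 CPM (741 to 760) elsewhere in vehicle. Sdf2l1, at 114 against 100.4 CPM, and Pdia4, at 60.3 against 61.8 CPM, had ratio intervals that included equality. Xbp1 was counted at 157 CPM (136 to 181) against 110.2 CPM, 1.43-fold higher with an interval apart from equality. Herpud1 passed the fold, at 187 CPM against 78.0 CPM, a log2 ratio of 1.25 (1.06 to 1.45). The arm medians of the log2 ratio were 2.75 for ATF4-CHOP and 0.21 for chaperones, beside -0.09 for all genes.

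In cisplatin, the 5 ATF4-CHOP genes were again all higher in cluster 7, while 2 chaperone genes were lower. Of 12219 measured genes, 24.8% were higher and 22.8% lower. Ddit3 was counted at 438 CPM (398 to 480) against 85.0 CPM (81.6 to 88.5), a 5.15-fold difference, and Trib3 at 117 CPM against 19.5 CPM. Sdf2l1 was lower, at 62.1 CPM (47.9 to 79.4) against 156 CPM (151 to 160), and so was Pdia4, at 57.3 CPM (43.6 to 73.9) against 125 CPM (121 to 129). Herpud1 was higher, at 197 CPM against 116 CPM, and Hspa5 was counted at 949 CPM against 961 CPM. Xbp1, on the other side than in vehicle, was counted at 68.0 CPM against 100.2 CPM, a log2 ratio of -0.55 (-0.92 to -0.22). The arm medians were 1.58 and -0.55, beside 0.03 for all genes. The 2 within-library contrasts have no cell in common but share the cluster's definition.

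**Figure D2:**
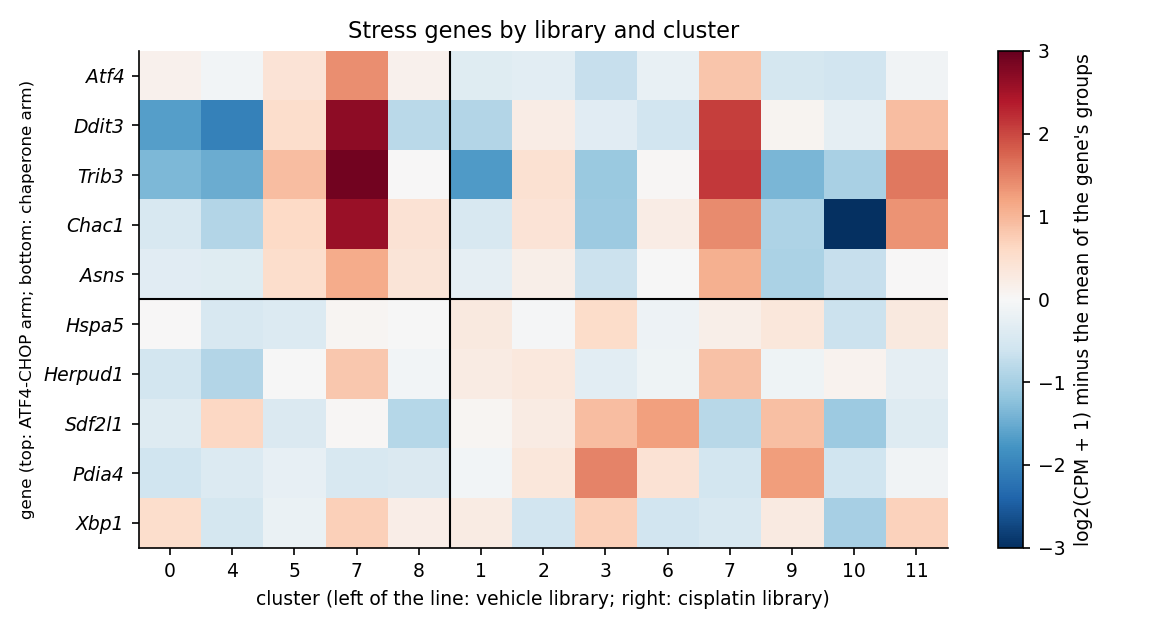
Heat map of log2(CPM + 1) of each gene minus its mean over the 13 groups of a library and a cluster with at least 50 cells, vehicle left of the vertical line. In both libraries the column of cluster 7 is high for the 5 ATF4-CHOP genes and Herpud1, and in cisplatin the columns of clusters 3 and 9 are high for Pdia4 and Sdf2l1.

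The other genes of the pathways came from lists chosen with earlier results of these data known. In vehicle cluster 7, beside 14.2% of all genes higher and 24% lower, 15 of 20 measured genes of amino acid synthesis and transport were higher and 1 was lower. Among them, Phgdh, the first enzyme of serine synthesis, was counted at 124 CPM against 26.9 CPM, and the cationic amino acid transporter Slc7a3 at 35.9 CPM against 6.66 CPM. The transsulfuration enzyme Cbs was the lower one, with 0 UMIs in the cluster. Of 13 tRNA synthetase and export genes, 10 were higher and none lower, with Eprs at 424 CPM against 168 CPM. Of 19 genes of transcription and signalling, 15 were higher and none lower. Nupr1, a stress-induced chromatin protein, reached 6161 CPM against 393 CPM, and Eif4ebp1, the translation repressor 4E-BP1, 195 CPM against 37.9 CPM.

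Of 20 ER chaperones and folding enzymes, 2 were higher in vehicle cluster 7, a share near the 14.2% of all genes, and none was lower. These were Dnajb9, a BiP co-chaperone, at 146 CPM against 64.6 CPM, and Hyou1, at 33.4 CPM against 19.8 CPM. None of 19 translocation and export genes passed the fold. Of 16 genes of ER-associated degradation 1 was higher and 2 lower, and of 11 cytosolic heat shock genes 5 were higher and none lower. In cisplatin cluster 7, beside 24.8% of all genes higher and 22.8% lower, the counts were 13 higher and 1 lower of 20 amino acid genes, 8 and 0 of 13 synthetase genes, and 15 and 0 of 19 signalling genes. There, 1 of 20 ER folding genes was higher and 7 were lower, among them Fkbp2, at 190 CPM against 369 CPM. Of 19 translocation genes 1 was higher and 5 lower, and of 16 degradation genes 5 were higher and 3 lower. The heat shock genes went the other way than in vehicle, with none of 11 higher and 5 lower. Of 15 measured genes of stress sensors, 2 were higher and 1 lower in vehicle cluster 7, and 7 were higher and 2 lower in cisplatin cluster 7. Eif2ak3, which encodes PERK, was higher in cluster 7 of both libraries, at 19.6 against 8.21 CPM in vehicle and 39.8 against 9.15 CPM in cisplatin. Ern1, which encodes IRE1, was the other higher sensor gene in vehicle cluster 7.

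Markers of other cells were counted beside these values. Of 7 fibroblast markers, Dcn was the 1 at 100 CPM in cluster 7, with 369 and 154 CPM in vehicle and cisplatin, and 5 were at 0 in each library, including Col1a1, Col1a2 and Col3a1. Neuroendocrine markers summed to 3916 CPM in vehicle cluster 7 against 6799 CPM outside it, and to 5150 against 10970 CPM in cisplatin, with Calca at 0 in both. Immediate early genes of tissue dissociation summed to 7886 CPM in cluster 7 against 10854 CPM outside it in vehicle, and to 9878 against 12683 CPM in cisplatin. The median depth of cluster 7 was 7499 and 5212 UMIs, against 8225 and 5974 outside it. The mitochondrial share was 2.6% and 2.7%, against 2.8% and 3.4%. The part of these in the levels was not tested.

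All 5 ATF4-CHOP genes had their highest level in cluster 7 in both libraries, although in cisplatin Trib3 and Chac1 had intervals that overlapped those of cluster 11. Chac1 was counted there at 22.3 CPM (14.2 to 33.5) in cluster 7 and 21.2 CPM (8.51 to 43.6) in cluster 11. In vehicle they shared the order of clusters 7, 5, 8, 0 and 4, although some neighbouring intervals overlapped for each gene but Ddit3. In cisplatin the orders below cluster 7 differed, with cluster 2 second for Asns and cluster 11 second for the other 4, and each interval of Atf4 and Chac1 below cluster 7 overlapped the next. In vehicle, Ddit3 was counted at 150 CPM (141 to 160) in cluster 5, led by mitotic and histone genes. It stood at 58.9 CPM in cluster 8, led by club cell genes such as Scgb1a1, at 32.1 CPM in cluster 0 and at 24.6 CPM in cluster 4, and no neighbouring intervals in this order overlapped. In cisplatin, cluster 11, led by interferon-induced genes such as Ifit3 and Isg15, came next after cluster 7, with Ddit3 at 197 CPM (152 to 251) in 57 cells. The mitotic cluster 2 followed at 120 CPM (113 to 129), then the intervals of clusters 2, 9, 10, 3, 6 and 1 overlapped their neighbours down to 55.5 CPM. Trib3 had the same first 3 clusters in cisplatin, at 117, 81.7 and 36.5 CPM, with the intervals of the first and second overlapping. Chac1 was not detected in cluster 10 of cisplatin, where its upper limit was 6.89 CPM.

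Chaperone genes had other orders. In vehicle, Pdia4 spanned 56.3 to 71.1 CPM over 5 clusters, and each interval overlapped the next. In cisplatin it spanned 56.0 to 242 CPM, highest in cluster 3 (228 to 256) and cluster 9 at 205 CPM. Sdf2l1 was highest in cluster 4 of vehicle, at 172 CPM (162 to 183), and in cluster 6 of cisplatin, at 264 CPM (246 to 284). Both of these clusters had high cyclin E transcripts, with Ccne2 at 314 CPM and 403 CPM. Cluster 7 came next for Ccne2 in each library (vehicle 263 CPM, cisplatin 302 CPM). Its Sdf2l1 level was 114 CPM for vehicle but only 62.1 CPM for cisplatin. High Ccne2 thus did not always go with high Sdf2l1. Xbp1 was lowest in cluster 4 of vehicle, at 65.2 CPM, and in cluster 10 of cisplatin, at 46.7 CPM. Hspa5 ranged from 603 to 871 CPM in vehicle and from 536 to 1233 CPM in cisplatin.

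**Figure D3:**
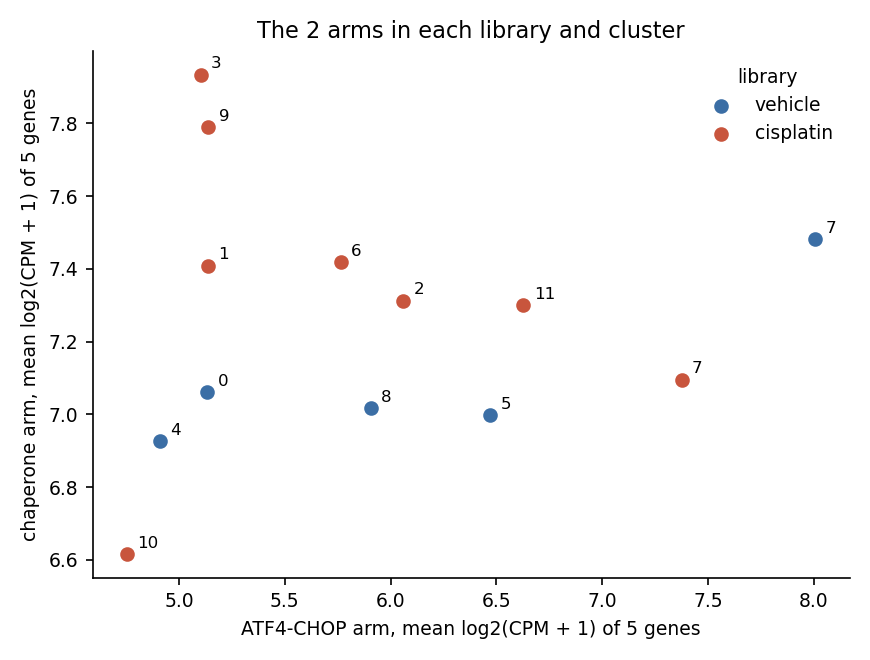
Mean log2(CPM + 1) of the 5 ATF4-CHOP genes (horizontal) and of the 5 chaperone genes (vertical) in each of the 13 groups of a library and a cluster, numbered by cluster. Cluster 7 lies far to the right in both libraries (8.01 in vehicle, 7.38 in cisplatin), and clusters 3 and 9 of cisplatin lie at the top (7.93 and 7.79) with low ATF4-CHOP means.

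Clusters 3 and 9 carried delta-like endocrine markers such as Sst, Hhex and Isl1 beside neuroendocrine ones, and held 759 cisplatin cells (18.0%) and 17 vehicle cells. Within cisplatin, these cells were compared with the 2865 cells of the neuroendocrine tumour-like clusters, where 12.8% of 11960 genes were higher and 20.7% lower. In the chaperone arm 3 of 5 genes were higher and none lower. Pdia4 was counted at 232 CPM (220 to 244) against 90.8 CPM (86.5 to 95.3), Sdf2l1 at 212 CPM against 121 CPM, and Xbp1 at 145 CPM against 91.3 CPM. Hspa5, at 1187 against 922 CPM, and Herpud1, at 89.1 against 128 CPM, stayed within the fold.

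The ATF4-CHOP arm of the delta-like clusters had none higher and 3 of 5 lower. Asns was counted at 47.5 CPM (42.3 to 53.3) against 75.0 CPM (71.1 to 79.1), Trib3 at 11.1 CPM against 20.8 CPM, and Chac1 at 3.22 CPM against 7.57 CPM. Ddit3, at 89.3 CPM (82.0 to 97.0) against 86.1 CPM (81.9 to 90.5), and Atf4, at 224 against 276 CPM, stayed within the fold. The arm medians were -0.65 for ATF4-CHOP and 0.66 for chaperones, beside -0.11 for all genes.

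The pathway lists are read beside the 12.8% of all genes that were higher and the 20.7% that were lower in these clusters. Of 20 ER chaperones and folding enzymes, 12 were higher and none lower. The ER prolyl isomerase Fkbp11 was counted at 58.6 CPM against 3.18 CPM and the disulfide isomerase Pdia6 at 520 CPM against 212 CPM. Ssr4, a subunit of the translocon-associated complex, was counted at 801 CPM against 222 CPM, and 5 of 19 translocation genes were higher and none lower. Of 20 amino acid genes, 2 were higher and 10 lower, with Phgdh at 6.61 CPM against 29.2 CPM. Of 13 synthetase genes none was higher and 3 were lower, near the share of all genes, and of 19 signalling genes 2 were higher and 5 lower. Of 15 measured sensor genes, 4 were higher and 3 lower. Among the higher ones, Ern1, the gene of IRE1, was counted at 16.8 CPM against 6.03 CPM, and it was also higher in vehicle cluster 7. The alveolar surfactant gene Sftpc stood at 663 CPM in the delta-like clusters and 24.4 CPM in the other cisplatin cells. Between the same cells, neuroendocrine markers summed to 18892 and 8513 CPM, club cell markers to 355 and 2534 CPM and dissociation genes to 8533 and 13701 CPM, and the median depth was 7611 and 5659 UMIs. The part of these in the levels of the delta-like clusters was not tested.

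The library difference of the chaperone arm moved with these clusters. Without them, Pdia4 was counted at 61.5 and 91.9 CPM in vehicle and cisplatin, a log2 ratio of 0.57 that no longer passed the fold, and Sdf2l1 had a log2 ratio of 0.42. Herpud1 then passed it, at 82.5 CPM and 127 CPM, a 1.54-fold difference, beside 5.61% of all genes higher and 20.6% lower. The chaperone median was 0.42 and the ATF4-CHOP median 0.01, beside -0.16 for all genes. Without cluster 7, Ddit3 was counted at 58.6 CPM in the vehicle and 85.0 CPM in the cisplatin library, a log2 ratio of 0.53 (0.45 to 0.63), against 0.25 with it. Sdf2l1 and Pdia4 were then the 2 higher members and none was lower, beside 7.98% of all genes higher and 22.1% lower.

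Since most clusters came from 1 library, the libraries were also compared between pairs of clusters, chosen after the data were seen. Except where both libraries drew on the same cluster, the paired clusters had different leading genes. A library difference in such a pair can therefore include a difference between clusters. Cells with at least 2 UMIs over 10 mitotic genes were 37.6% of cluster 0 in vehicle and 21.3% of cluster 1 in cisplatin. Cells were not thinned for this cut, and their median depth was 7572 and 4763 UMIs. The part of depth in these shares was not tested. Between the low-mitosis clusters 0 of vehicle and 1 of cisplatin, Ddit3 was higher, at 32.1 and 55.5 CPM, and so was Herpud1, at 72.7 and 126 CPM. Here 4.69% of all genes were higher and 22.7% lower. Between the mitotic clusters 5 and 2, Atf4 was lower, at 463 and 281 CPM, while Sdf2l1, at 82.0 and 132 CPM, and Pdia4, at 71.1 and 108 CPM, were higher, beside 6.45% of all genes higher and 19.9% lower. Ddit3 was counted there at 150 and 120 CPM, within the fold.

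Between the cyclin E clusters 4 and 6, genes of both arms were higher in cisplatin. Ddit3 was counted at 24.6 CPM (20.8 to 28.9) in vehicle and 69.0 CPM (59.6 to 79.4) in cisplatin. Trib3 was counted at 8.70 and 26.9 CPM, Herpud1 at 57.8 and 98.4 CPM, Sdf2l1 at 172 and 264 CPM, and Pdia4 at 64.2 and 114 CPM. These were 5 of 9 measured members, beside 4.63% of all genes higher and 21.8% lower, while Chac1 had under 50 UMIs. Cluster 4 was called neuroendocrine tumour-like and cluster 6, led by Ly6a and Cldn5, was unnamed, so the pair is alike in cyclin E genes and not in all markers.

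Within cluster 7 the ATF4-CHOP arm was lower in cisplatin. Of its 5 genes, 3 were lower and none higher, namely Ddit3 at 669 and 438 CPM, Trib3 at 202 and 117 CPM, and Chac1 at 51.3 and 22.3 CPM. Asns was counted at 171 and 166 CPM. In the chaperone arm, Sdf2l1 was lower, at 114 and 62.1 CPM, and so was Xbp1, at 157 and 68.0 CPM, while Hspa5 was counted at 871 and 949 CPM. Here 18.3% of all genes were higher and 15.6% lower.

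**Figure D4:**
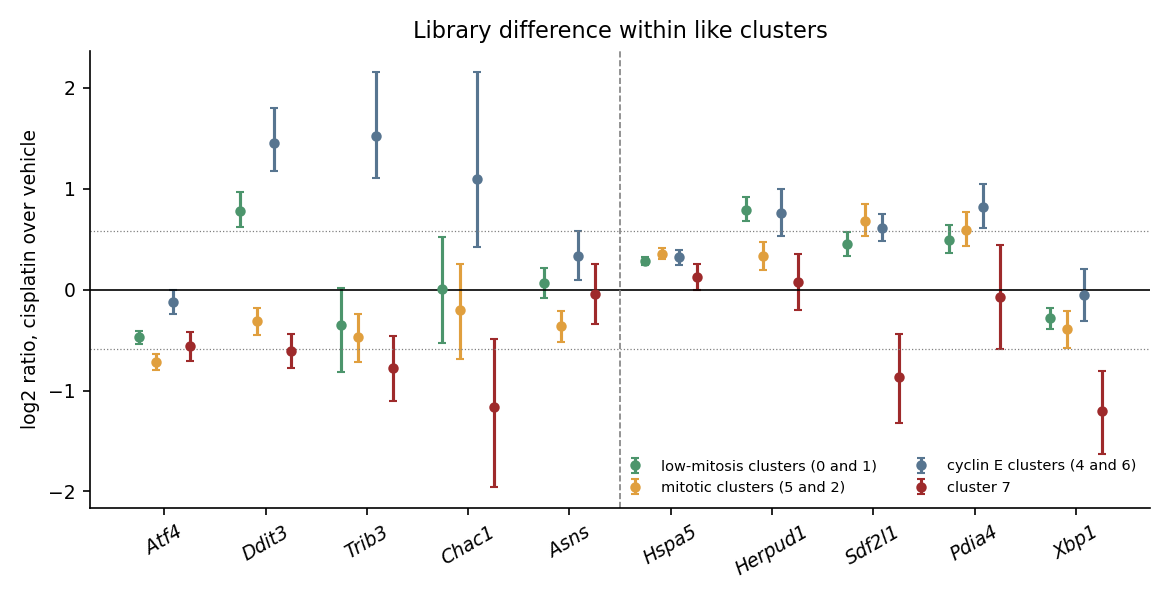
Log2 ratio of cisplatin over vehicle for each gene in 4 pairs of clusters, with 95% counting intervals. Dotted lines mark the 1.5-fold threshold. Ddit3 lies above the upper line in the low-mitosis (0.77) and cyclin E (1.45) pairs and below the lower line in cluster 7 (-0.61), while Atf4 lies below 0 in all 4 pairs.

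Cell division was set beside the arms by comparing cells with at least 2 UMIs over 10 mitotic genes with cells that had none. Cells were not thinned for this cut. The mitotic cells were 57.6% of vehicle cells with 67.5% of UMIs, and 50.8% of cisplatin cells with 61.5%. Cells with none were 20.8% with 14.8% of UMIs in vehicle, and 27.1% with 19.5% in cisplatin. Mitotic cells were thus deeper, and the part of depth was not tested. In vehicle, Trib3 was higher in mitotic cells, at 27.5 CPM (25.3 to 29.8) against 17.8 CPM (14.2 to 22.0), beside 11.1% of all genes higher and 3.74% lower. In cisplatin, Trib3 was higher, at 28.9 CPM against 12.9 CPM, and so was Ddit3, at 114 CPM (109 to 119) against 68.6 CPM (61.9 to 75.8), beside 12.4% higher and 4.97% lower. In vehicle, Ddit3 was counted at 82.7 against 74.7 CPM. No chaperone gene passed the fold in either library. Xbp1 had the lowest log2 ratios, of -0.55 and -0.57. Mitotic cells were 40.6% of cluster 7 in vehicle and 55.4% in cisplatin.

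Within single cells, more gene pairs of the ATF4-CHOP arm than of the chaperone arm were detected together beyond counting error. In cells thinned to 3000 UMIs, 9 of 10 pairs within the ATF4-CHOP arm in vehicle and 8 of 10 in cisplatin had a higher share in cells that held the partner, with intervals that did not overlap. Within the chaperone arm there were 0 and 2 of 10 such pairs, and between the arms 4 and 2 of 25. With cluster 7 left out, the counts were 9 and 8, 0 and 2, and 5 and 2. How often pairs of other genes part in this way was not counted, so these counts only describe the members. Pearson correlations over the same cells were low, with medians in vehicle and cisplatin of 0.13 and 0.12 within the ATF4-CHOP arm. They were 0.03 and 0.04 within the chaperone arm and 0.02 and -0.01 between the arms. Hspa5 was detected in most cells and Chac1 in few, which limits what pairs with them can show.

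Outside cluster 7 in vehicle, Trib3 was detected in 15.2% (11.7 to 19.3) of 362 cells with a Ddit3 UMI and in 1.78% (1.34 to 2.32) of 3026 cells without. In cisplatin the shares were 14.3% (11.7 to 17.2) of 665 cells and 2.12% (1.64 to 2.70) of 3061. Herpud1 was the chaperone-arm gene that went with Ddit3, at 26.2% against 19.3% in vehicle and 34.9% against 26.4% in cisplatin, with intervals apart in both. The shares of Hspa5, Sdf2l1, Pdia4 and Xbp1 overlapped between cells with and without Ddit3 in both libraries, as in Hspa5 at 81.5% and 82.7% in vehicle.

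**Figure D5:**
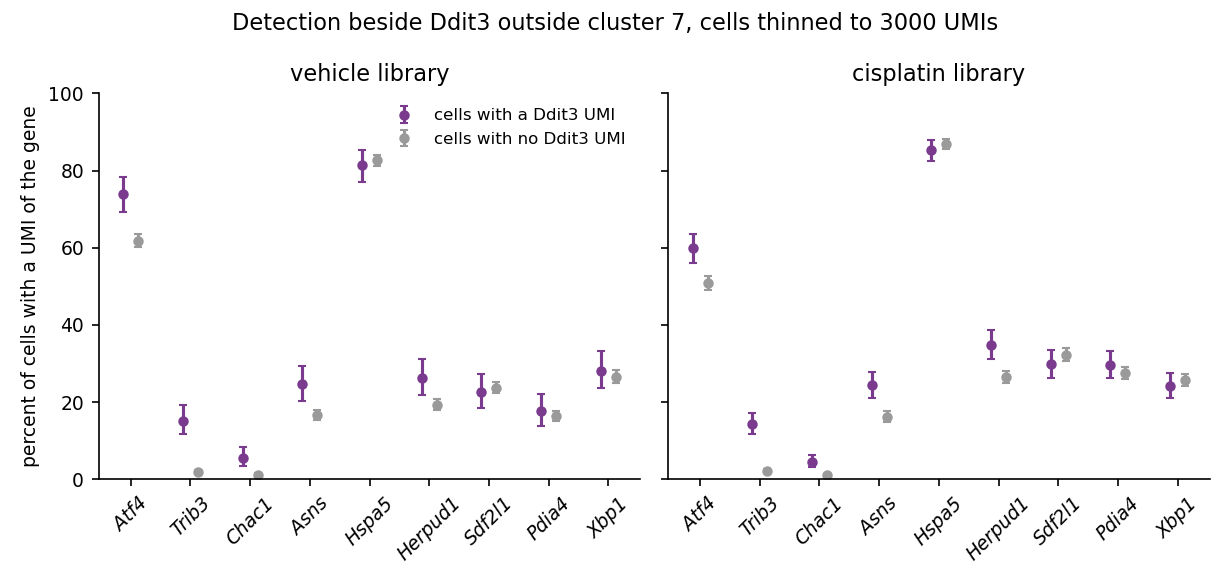
Percent of cells with a UMI of each other gene among cells with (purple) and without (grey) a Ddit3 UMI, outside cluster 7 and thinned to 3000 UMIs, with exact 95% binomial intervals. The points part for Atf4, Trib3, Chac1, Asns and Herpud1 in both libraries, as for Trib3 at 15.2% and 1.78% in vehicle, and lie together for Hspa5, Sdf2l1, Pdia4 and Xbp1.

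The CHOP axis, taken as the sum of Ddit3, Trib3 and Chac1, was concentrated in few cells. It reached at least 3 UMIs in 116 vehicle cells (3.29%) and 133 cisplatin cells (3.45%). The 5% of cells with the most UMIs of this sum held 64.0% of them in vehicle and 49.5% in cisplatin, while the same share of cells held 18.4% and 18.5% of Hspa5 UMIs. Hspa5 has far more UMIs per cell, so part of this gap follows from counting. Of the cells with 3 or more, 47.4% in vehicle and 23.3% in cisplatin were in cluster 7. The mitotic clusters 5 and 2 held 32.8% and 36.1%.

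Across the 13 groups of a library and a cluster, the Pearson correlation between the mean log2 levels of the arms was 0.06. These groups share libraries and depth, so the values are a description. The genes outside the list most like the ATF4-CHOP mean were Slc3a2 (r = 0.962), Eif4ebp1 (0.948), Sars (0.926), 1600020E01Rik (0.902) and Arl14ep (0.899). Slc3a2, the heavy chain shared by amino acid transporters, ranged from 78.4 to 288 CPM. Those most like the chaperone mean were Nedd9 (0.925), Hspb1 (0.925), Deb1 (0.915), Mt1 (0.904) and Stxbp5l (0.902). Hspb1, a small heat shock protein, ranged from 63.5 to 939 CPM, and like the other 4 it was highest in cluster 3 of cisplatin.

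The correlation of Herpud1 over the 13 groups was 0.70 with the mean of the ATF4-CHOP genes and -0.21 with the mean of the other 4 chaperone genes, while Hspa5 had 0.15 and 0.75 and Pdia4 -0.32 and 0.65. The values were weaker for Sdf2l1, at -0.26 and 0.40, and for Xbp1, at 0.21 and 0.32. Cluster 7 of both libraries is among the 13 groups. It had the highest ATF4-CHOP mean and the highest Herpud1 level of each library, so the Herpud1 correlation is not separate from that cluster. Herpud1 was higher in cluster 7 of both libraries, it was detected with Ddit3 in both, and it was not higher in the delta-like clusters. Between the libraries its log2 ratio over all cells was 0.53, beside a median of -0.18 for the ATF4-CHOP arm. Herpud1 is the middle of the 5 chaperone genes, so the median of that arm is its own value. Hspa5, Sdf2l1 and Pdia4 were at 0.35, 0.59 and 0.97, and Xbp1 at -0.18. In neuroendocrine tumour-like clusters only, Herpud1 was highest of the 10 at 0.72, with Pdia4 at 0.56 and Ddit3 at 0.55 next. As shown above, its promoter held both the amino acid response element and the variant ER stress element, the only one of the 10 to hold both kinds in the window searched. Whether either element has a part in the levels of Herpud1 was not tested.

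Summed over all cells, the lists are read beside 8.09% of all genes higher and 21.7% lower in cisplatin. Of 20 amino acid genes none was higher and 3 were lower in cisplatin, and of 13 synthetase genes none was higher and 3 were lower, among them Eprs at 178 and 101 CPM. Of 19 signalling genes 3 were higher and 3 lower. Atf3, a partner of CHOP, was counted at 233 and 399 CPM, and Atf5 at 175 and 114 CPM. Of 20 ER folding genes 4 were higher and 2 lower, with Fkbp11 at 3.16 and 15.2 CPM. Their median log2 ratio was 0.21, beside -0.16 for all genes. Without the delta-like clusters none of these 20 was higher and 2 were lower.

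Of 15 measured sensor genes, none was higher and 5 were lower in cisplatin, a share to set beside 21.7% of all genes lower. Eif2ak2, the kinase PKR, was counted at 36.5 and 19.6 CPM and Atf6 at 29.7 and 16.8 CPM. Eif2ak3 was counted at 8.64 and 10.3 CPM. Of 11 cytosolic heat shock genes 4 were higher and none lower, with Hspa1a at 159 and 453 CPM and Hspb1 at 130 and 353 CPM. Of 16 genes of ER-associated degradation 1 was higher and 1 lower, Selk and Sel1l, and of 20 translocation genes 2 were higher and 1 lower. Of 12 dissociation genes 2 were higher and 1 lower, and their sum was 10741 CPM in vehicle and 12582 CPM in cisplatin.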

How the data were processed

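Single-cell RNA of GFP-sorted mouse tumour cells was measured with the 10x platform. The authors deposited whole-number UMI counts for each gene and cell, unnormalized, as the file headers and values show. The submitters' processing notes list Cell Ranger 2.0.2 and mm10 with no role stated. Whether counting used strand is not given in the sources used here. All members and lists were chosen with earlier results of these data known.

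Barcodes with under 500 genes or over 10% mitochondrial UMIs were removed. No doublet caller was run and no barcode was removed as a doublet. Counts were summed over cells, scaled to CPM and compared as log2 ratios with 1 CPM added, so ratios of low genes are understated. A gene was measured with at least 50 UMIs over both groups and called at 1.5-fold. Intervals of sums are exact Poisson, of ratios exact binomial on the counts without the added CPM, and of shares Clopper-Pearson, at 95%. They cover counting error only.

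Clusters used 2000 variable genes, 30 principal components, 15 neighbours and Leiden resolution 0.5 (igraph 0.11.9, Python 3.11.15). A cluster took a name with at least 3 markers at 100 CPM, unless markers of another type outnumbered its own among its 10 leading genes. Pairs of clusters were chosen after seeing the leading genes. Alternatives included TMM factors of edgeR 4.0.16 and median-of-ratios factors of DESeq2 1.42.0. On simulated counts of 13443 genes for the comparison of all kept cells, 98.0% of 199 genes changed 2-fold were called, and 1.05% of unchanged ones. The simulation held counting error only, without variation between animals, libraries or cells. The 1.05% is therefore not the rate of false calls between real libraries.

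Named genes were the 10 members, up to 3 per direction of each list by size among those past the fold, the 5 most like each arm and the 8 leading genes of a cluster. Genes named outside that rule, such as Mars, Eif2ak3, Ccne2 and Sftpc, were chosen after their values were seen.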

Additional observations from a re-analysis of the deposited data

Results flagged for a closer look

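Ddit3, Trib3 and Sdf2l1 had library differences in opposite directions between pairs of clusters, each past the 1.5-fold threshold. The log2 ratio of cisplatin over vehicle of Ddit3 was 0.77 in the low-mitosis clusters and 1.45 in the cyclin E clusters, but -0.61 in cluster 7. That of Trib3 was 1.52 in the cyclin E clusters and -0.78 in cluster 7. That of Sdf2l1 was 0.68 in the mitotic clusters and 0.61 in the cyclin E clusters, but -0.87 in cluster 7. The difference between pairs was not tested, since each library is 1 sample. The clusters were paired after the data were seen. Apart from cluster 7, the paired clusters had different leading genes, so they are not matched cell states. Cluster 7 was paired with itself and shares its leading genes by construction, which does not show a matched state. Between vehicle and cisplatin it differed in Cxcl10, at 48.1 and 363 CPM, and in Dcn, at 369 and 154 CPM.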

How the results depend on the processing

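Each choice was changed in turn. The chaperone median log2 ratio of 0.53 was 0.68 with TMM scaling, 0.71 with median-of-ratios factors, 0.30 in neuroendocrine tumour-like clusters only and 0.42 without the delta-like clusters. The scalings moved the median of all genes from -0.16 to -0.02 and to 0.00. The ATF4-CHOP median of -0.18 was 0.12 in neuroendocrine tumour-like clusters. The count of 2 higher members was 3 with both scalings and relative to the median of all genes, 1 in neuroendocrine tumour-like clusters, without the delta-like clusters, after thinning to 3000 UMIs and after removal of the length trend, and 0 at 2-fold. The count of 0 lower members was 1 in cells with no mitotic UMI. Under other clusterings the cluster with the highest ATF4-CHOP mean was picked anew, so a high ATF4-CHOP median was set by that choice. The ATF4-CHOP median of 2.75 for vehicle cluster 7 was 2.44 at resolution 1 and 3.46 with stress genes kept in the clustering. The chaperone median of 0.21 was 0.41 and 0.46. In cisplatin, 1.58 was 2.36 with stress genes kept, and -0.55 was -0.19 at resolution 1. At resolution 1 the picked cluster held 213 vehicle cells, of which 124 were in cluster 7, and 166 cisplatin cells, of which 101 were. With stress genes kept it held 161 and 156 cells, of which 116 and 93 were in cluster 7. The cause of these differences was not tested. Of 120 member values under alternatives, 66 moved by less than their interval, 54 moved more and 0 changed sign after a call. Ddit3 was 0.25 over all cells and -0.12 in cells with no mitotic UMI, where its CPM intervals overlapped. Atf4, Hspa5, Herpud1, Sdf2l1 and Pdia4 kept their sign in all 12 settings. No paired analysis was possible because each group is 1 library. Depth limits Chac1 most, with 273 and 211 UMIs.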

Other observations

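Cluster 7 also held transcripts outside the stress pathways. The chemokine Cxcl10 was counted at 48.1 CPM (36.6 to 62.0) in cluster 7 of vehicle and at 4.49 CPM over all vehicle cells. In cisplatin it was counted at 363 CPM in cluster 7 and 442 CPM in cluster 11. The cyclin gene Ccne1 was counted at 104 CPM in vehicle cluster 7, 172 CPM in cluster 4 and 58.3 CPM over all vehicle cells, and in cisplatin at 37.9 CPM in cluster 7 and 119 CPM in cluster 6. The library totals of Cxcl10 were 4.49 CPM in vehicle and 31.5 CPM in cisplatin.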
